A study of Chelon labrosus with 24 samples.

Results

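RNA from the liver of immature Chelon labrosus, the thicklip grey mullet of European coasts, was compared between an inner and an outer part of a harbour at the first of 2 samplings of a caging study. All arrays whose labels name the first sampling were taken, which gave 12 of the 24 arrays of the series, 6 from the inner site (Pasaia_AZTI) and 6 from the outer site (Pasaia_Donibane). The other 12 arrays come from the second sampling at the same sites and serve here to estimate the spread and to ask whether a site difference was the same later. Both groups are field samples of the same stage and tissue, with no agent or genetic change named in the labels, and they differ there only in the place of the cage. The labels date the first sampling to day 5, while the series text speaks of 3 days of exposure. Liver samples carry numbers (inner 2, 3, 4, 5, 7 and 8, outer 1, 2, 3, 4, 5 and 8), and nothing states outright that each is a separate animal. They are called fish below, and a p-value therefore measures only how far these samples spread, which may be technical. Each site is represented by the fish caged there, so cage and site cannot be told apart, and no liver from before the caging was analysed here.

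The liver of a fish clears foreign compounds, makes most plasma proteins and, in a maturing female, makes the egg yolk precursors and egg envelope proteins under the control of estrogen. Pollutants are commonly followed in it through a few induced genes: cytochrome P450 1A through the aryl hydrocarbon receptor, metallothionein through metals, heme oxygenase through oxidative stress, heme and metals, and vitellogenin or choriogenin through estrogens. Liver also holds resident immune cells and blood, whose transcripts are read in the same RNA. In such bulk RNA, fewer cells of a type and less RNA per cell cannot be told apart.

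Each array carries 638 probes of 55 bases for 160 genes, spotted 4 times (628 probes) or 10 times (10 probes). A level below is the log2 signal of a probe minus the 75th percentile of its array, so that a difference of 1 log2 unit is a doubling. Testing required 50% or more of a probe's spots to be well above background in 6 or more of the 24 arrays, which left 476 probes in 129 genes. Of the 31 genes not tested, 25 had no probe well above background in any fish of the first sampling. In the first-sampling fish, 443 to 484 probes were well above background and the 75th percentile of log2 signal ran from 10.7 to 12.1. Neither measure separated the sites, with inner minus outer differences of -6.17 probes (exact permutation p = 0.411, two-sided) and 0.0110 log2 units (exact permutation p = 0.978). All 6 liver markers chosen for the check (transferrin, alpha-2-macroglobulin, C3, ApoE, haptoglobin and hepcidin) were well above background in all 12 fish.

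At a Benjamini-Hochberg adjusted p under 0.05 in limma, 25 probes were higher in inner fish (5.25% of those tested) and 44 lower (9.24%). They belong to 7 genes that were higher (5.43% of 129) and 17 that were lower (13.2%), together 24 genes (18.6%). The median difference over all tested genes was -0.07, and 284 of the 476 probes had the lower mean in inner fish. Which side held more calls depended on the scaling of the arrays. The array median and the median over probes detected on every array each called 25 probes higher and 10 lower, and taking the 75th percentile over those probes called 32 and 5. Quantile normalization gave 17 and 24, the deposited values 15 and 21, normexp background correction 11 and 18, and spike-in controls 8 and 1. Relative to its 75th percentile, the median over probes detected everywhere was 0.155 lower in inner than in outer arrays (exact permutation p = 0.0606). All 24 called genes had the same sign under all 7 of these alternatives, although only heme oxygenase was called under every one. The medians, the 75th percentile over detected probes and the spike-ins only move every difference by a shared amount. The largest such shift, 0.251 log2 units, was below the difference of every called gene, so no sign could turn there.

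The number of probes behind a gene says little about how often it was measured. Of 157 genes with 4 or more probes, 113 had all of them in 1 stretch of sequence, where neighbouring probes share at least 20 bases and often all but a few. Counted by stretch, 10 stretches held a probe called higher and 23 held one called lower, of 183 tested. Below, a called gene is described by its brightest called probe, which in 7 of the 24 was not its brightest probe, and any other gene by its brightest tested probe. Some sequences were spotted as more than 1 probe, which gives a view of the error between spots of the same array. In 7 tested pairs of identical probes the site difference was repeated to within 0.00107 to 0.0373 log2 units, against a median standard error of 0.249. Error from labelling and hybridisation is shared by such a pair and was not measured, so the larger standard error is not a measure of the fish alone.

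**Figure D1:**
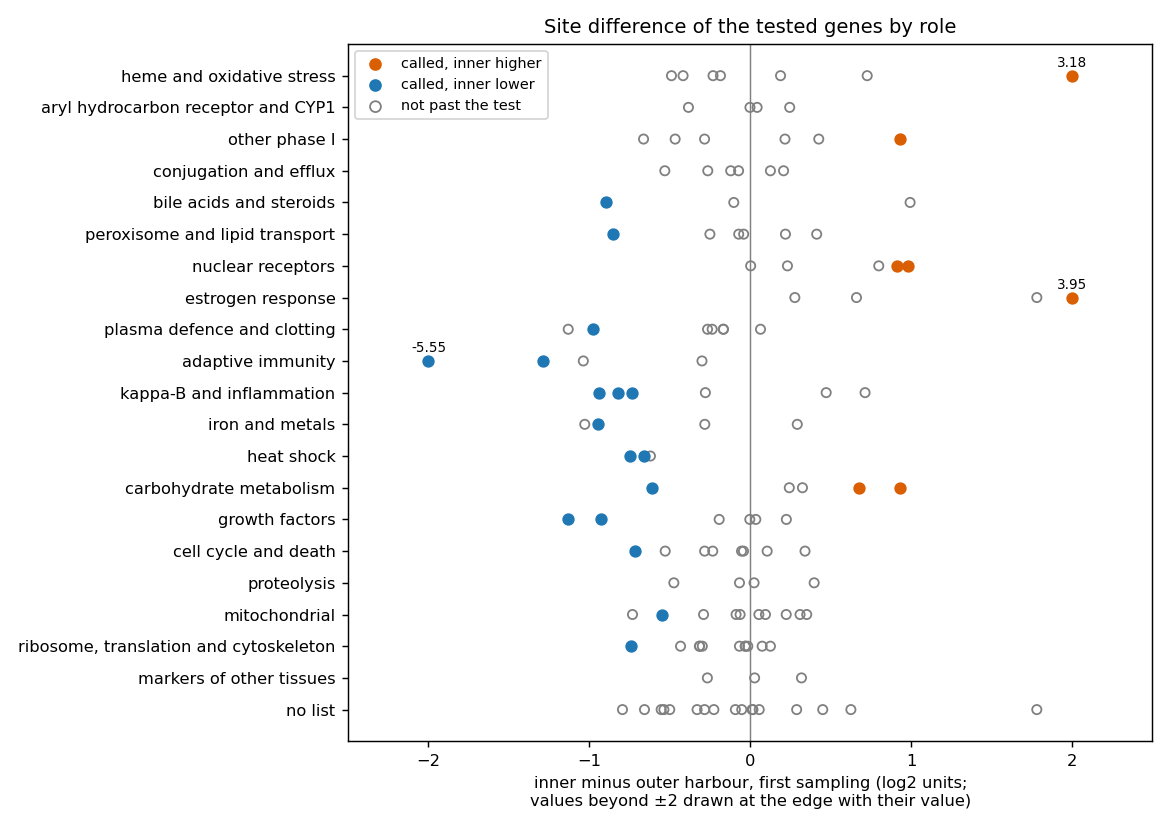
Site difference of each of the 129 tested genes (horizontal axis, inner minus outer in log2 units), by role (vertical axis). Filled points passed the test (7 genes higher, 17 lower), open points did not, and the genes at 3.18, 3.95 and -5.55 are drawn at the edge of the plot with their value.

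Heme oxygenase (Heme_oxigenase32), the enzyme that opens the heme ring to give biliverdin, carbon monoxide and iron, had the lowest adjusted p and the clearest gap between the sites, although choriogenin L and MHC_II below had larger differences. Its level in inner fish 2, 3, 4, 5, 7 and 8 was -2.04, -0.35, -0.96, -1.36, -2.27 and -2.29. In outer fish 1, 2, 3, 4, 5 and 8 it was -4.41, -3.99, -4.51, -4.21, -5.73 and -5.50. Every inner fish lay above every outer fish, and the gap between the lowest inner and the highest outer fish was wider than 1 log2 unit. The difference was 3.18 ± 0.44 (SE, n = 6 and 6, limma adjusted p = 3.66e-05), a 9.06-fold higher level with a 95% interval of 2.27 to 4.09 log2 units. It was the same size on each of the 3 slides, at 3.00, 3.20 and 3.33, and between 2.94 and 3.33 whichever fish was left out. The brightest probe is shown, because this is the gene whose call held under every scaling, with the bases shared by all 4 of its overlapping probes in capitals.
Heme_oxigenase32: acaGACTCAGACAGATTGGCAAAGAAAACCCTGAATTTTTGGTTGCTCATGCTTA
The 4 probes share 52 bases and gave differences of 3.18 to 3.21, so they amount to 1 measurement repeated. Of the 476 tested probes no other had all inner above all outer fish, so these 4 are the whole of that set (0.84%).

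The remaining 6 tested genes of the heme and oxidative stress group did not pass, with differences from -0.49 to 0.73. The entry THIO, whose name does not settle which gene is meant, was counted in this group and had -0.49 ± 0.21. XDh, the usual symbol of xanthine dehydrogenase, had 0.73 ± 0.40. Catalase, which breaks down hydrogen peroxide, lay between -1.97 and -0.59 in inner fish (median -1.74) and between -1.50 and -0.82 in outer fish (median -1.18). The groups overlapped and the difference was -0.42 ± 0.24 (adjusted p = 0.278). Cytosolic superoxide dismutase (Cu-Zn_SOD) had -0.19 ± 0.19, peroxiredoxin -0.23 ± 0.17 and glutathione peroxidase 0.19 ± 0.30. The quinone reductase of the array, NAD(P)Hquinone_dehydrogenase, was not tested. Its 4 probes were well above background in outer fish 8 alone, at -7.33 to -6.66, and in none of the inner fish. The high level of heme oxygenase in inner fish was therefore measured without a called difference in any other tested member of its group. As only 18.6% of all tested genes passed in either direction, the lack of calls among these 6 is no result about the group.

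Choriogenin L (Choriogenina_L), a protein of the egg envelope that the fish liver makes under estrogen, had the widest spread between fish of the called genes. Inner fish 2, 3, 4, 5, 7 and 8 had levels of -5.21, 0.64, -4.64, -9.92, -5.30 and -3.76. Outer fish 1, 2, 3, 4, 5 and 8 had -10.06, -7.11, -9.35, -9.28, -7.29 and -8.81. Inner fish 5 lay among the lowest outer fish, while the other 5 inner fish lay above all outer fish. On this probe 5 of 6 inner fish and 2 of 6 outer fish (numbers 2 and 5) were well above background. At the second sampling 0 inner fish and 1 outer fish were. The probe therefore met the filter of 6 arrays only through the inner fish of the first sampling, where it is high. Its p-values and calls describe a gene let in by that group and are no independent support. The difference was 3.95 ± 1.08 (adjusted p = 0.0232), its 95% interval ran from 1.73 to 6.18, and no fold is given because most outer values are background. Leaving out inner fish 5 raised it to 5.00 (adjusted p = 6.63e-04), and leaving out inner fish 3 lowered it to 2.88 (adjusted p = 0.0404). With only the 12 first-sampling arrays in the fit, where the inner SD of 3.39 no longer shares its estimate with quieter groups, the adjusted p was 0.0919, and normexp background correction gave 1.74.

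The vitellogenin-like VgC (Mugil_cephalus_VgC), a yolk protein precursor, was well above background in all 12 fish on its brightest probe. Its levels were -4.19, -0.32, -3.28, -7.82, -2.61 and -4.34 in inner fish 2, 3, 4, 5, 7 and 8. In outer fish 1, 2, 3, 4, 5 and 8 they were -7.21, -4.81, -5.76, -4.64, -6.50 and -4.33. Inner fish 3 was again the highest and inner fish 5 the lowest of all 12, and the groups overlapped. The difference of 1.78 ± 0.86 did not pass (adjusted p = 0.186). Without inner fish 5 it was 2.59 and passed (adjusted p = 0.0149), without inner fish 3 it was 1.09 (adjusted p = 0.429), and within slide 2, which holds inner fish 5, it was -0.35. VTG-B, named for another vitellogenin, was not tested because too few arrays showed it. It was well above background in a single fish of the first sampling, inner fish 3, where its 4 probes read -5.18, -5.27, -5.59 and -5.63, while every other fish was at -9.11 or lower and below background. VTG-A was not above background in any of the 12 fish. The estrogen receptors ERalpha and ERb, which carry the hormone signal, had differences of 0.66 ± 0.49 and 0.28 ± 0.37 and did not pass. Of the 4 tested genes in the group 1 was higher, 0 lower and 3 not past, with a median difference of 1.22. Over all tested genes 5.43% were higher. The higher gene of the group is choriogenin L, which met the filter only through the inner fish of the first sampling. Neither the group's count nor its median is therefore independent support. The probes read for the egg envelope and the yolk gene are shown because they carry the pattern of single fish described above, with the bases common to the overlapping choriogenin probes in capitals. The VgC probe overlaps none of the other probes of its name and is in capitals throughout.
Choriogenina_L: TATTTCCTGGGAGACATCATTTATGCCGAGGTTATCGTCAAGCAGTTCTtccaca
Mugil_cephalus_VgC: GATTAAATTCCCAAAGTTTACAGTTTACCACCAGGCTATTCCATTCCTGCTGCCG
The 3 tested VgC probes come from 3 separate stretches and gave differences of 1.69 to 1.78.

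**Figure D2:**
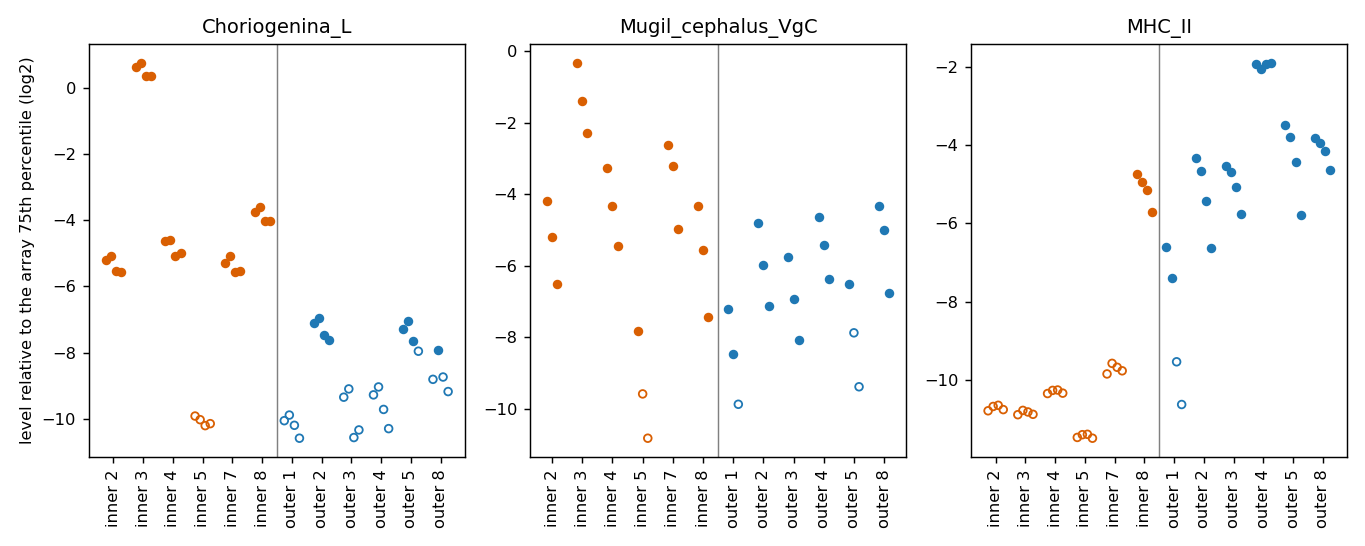
Level of each tested probe (vertical axis, log2 relative to the array's 75th percentile) in each fish of the first sampling (horizontal axis) for choriogenin L, VgC and MHC_II. Filled points are well above background and open points are not; inner fish 3 is highest and inner fish 5 lowest of the inner fish for choriogenin L and VgC, and MHC_II is above background in 1 inner fish, and outer fish 1 falls below background on 2 of its 4 probes.

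Nuclear receptors, which switch genes on a hormone or lipid ligand, had 2 members higher in inner fish, 0 lower and 3 not past. Over all tested genes 5.43% were higher and 13.2% lower, and groups this small were not tested as sets. Thyroid hormone receptor alpha (Thyroid_hormone_receptor_alfa) ran from -6.12 to -4.96 in inner fish (median -5.69) and from -7.14 to -5.89 in outer fish (median -6.54). The ranges overlapped only through outer fish 8 and inner fish 3 and 5. The difference was 0.91 ± 0.23 (adjusted p = 0.0156) and its call held whichever fish was left out, but with normexp it was 0.37 and did not pass. PPARg, named for the receptor of fat storage, had levels of -2.13, -2.25, -2.40, -3.42, -2.43 and -2.76 in inner fish and -3.60, -4.45, -4.64, -2.72, -2.57 and -3.31 in outer fish, in the order of their numbers. Outer fish 4, 5 and 8 lay within the inner range, and the other 3 outer fish lay below it. Its difference was 0.98 ± 0.30 (adjusted p = 0.0364), and the call was lost when any one of 8 of the 12 fish was left out. PPARa, the sister receptor of fat burning, had 0.80 ± 0.51 (adjusted p = 0.328), and RXR, the partner of many of these receptors, 0.00 ± 0.18.

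Among the genes of biotransformation, which make foreign compounds soluble, CYP_2 alone passed. It bears the name of the cytochrome P450 family that oxidises many drugs and steroids. Its levels were -1.14, -1.22, -0.58, -2.18, -1.03 and -1.22 in inner fish 2, 3, 4, 5, 7 and 8, and -2.20, -2.07, -2.20, -2.07, -2.56 and -1.86 in outer fish 1, 2, 3, 4, 5 and 8. Inner fish 5 fell within the outer range, and the other 5 inner fish lay above every outer fish. The difference was 0.93 ± 0.30 (adjusted p = 0.0461), 1.12 without inner fish 5 (adjusted p = 0.0114), and the call was lost in 10 of 12 fits that left out 1 fish. Another probe set of that family, CYP2_N, had its lowest value in inner fish 5 as well, at 0.10 against 2.68 to 3.50 in the other inner fish, and a difference of -0.47 ± 0.42.

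The classic markers of exposure to aromatic pollutants and metals did not pass. CYP1A1, a monooxygenase whose gene is switched on by the aryl hydrocarbon receptor, ran from 0.52 to 1.57 in inner fish (median 0.87) and from 0.61 to 2.24 in outer fish (median 1.22). Its difference was -0.38 ± 0.28 (adjusted p = 0.411), with a 95% interval from -0.97 to 0.20, which leaves room for an inner level up to 0.20 log2 units higher. Its 4 probes lie in 4 separate stretches and read -0.76 to -0.38. The receptors AHR1 and AHR2 had 0.00 ± 0.29 and 0.25 ± 0.28, but the 4 AHR2 probes, from 3 stretches, ran from -0.56 to 0.25 and none passed. Metallothionein (MT), which binds zinc, copper and cadmium, ran from 3.77 to 5.57 in inner fish and from 4.05 to 5.85 in outer fish, a difference of 0.29 ± 0.36 (adjusted p = 0.629) with an interval from -0.46 to 1.04. GST, a glutathione conjugation enzyme, had -0.12 ± 0.20 (adjusted p = 0.735) and the other sign under 4 of the 7 scalings. UGT, named for the enzymes that attach glucuronic acid, had -0.07 ± 0.32. In all, 0 of 4 genes of the aryl hydrocarbon receptor group, 1 of 6 other phase I genes and 0 of 6 conjugation and efflux genes passed. Over all tested genes 18.6% passed in either direction. CYP1Bb, CYP1_C and Cyp1 were not above background in any of the 12 fish. The single probe of Cyp1 has the sequence of a CYP1_C probe, so those entries are not independent.

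Plasma proteins and iron carriers lay lower in inner fish where they were called. Alpha-2-macroglobulin (a-2_macroglobulin), which traps proteases in plasma, had levels of 2.84, 3.04, 3.16, 3.18, 2.85 and 2.61 in inner fish 2, 3, 4, 5, 7 and 8. In outer fish 1, 2, 3, 4, 5 and 8 it had 3.60, 3.93, 4.53, 3.48, 3.93 and 4.06. No inner fish reached the lowest outer fish. The difference was -0.98 ± 0.18 (adjusted p = 0.00106), a 1.97-fold lower level, and it was called under 6 of the 7 other scalings and with any 1 fish left out. Its probes cover 2 stretches, both of them called. Together with probes of the entry spelled mitochondrial, these were the only ones with all inner below all outer fish (8 probes, 1.68% of those tested).

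Transferrin, the iron carrier of plasma, ran from 3.24 to 5.29 in inner fish (median 4.06) and from 4.32 to 5.71 in outer fish (median 5.18). Inner fish 2 and 4 lay within the outer range, and the other 4 inner fish lay below it. The difference of -0.94 ± 0.26 (adjusted p = 0.0249) was called under 1 of 7 other scalings, and the call was lost without inner fish 7, inner fish 8 or outer fish 3. Hepcidin, the peptide hormone that limits iron uptake, varied widely among outer fish, from 1.61 to 6.36, and had -1.03 ± 0.80 (adjusted p = 0.438). Haptoglobin, which binds free hemoglobin, ran from 0.16 to 2.03 in inner fish and from 0.42 to 4.42 in outer fish, with -1.13 ± 0.45 (adjusted p = 0.0878). Clotting and complement proteins lay near the median of all genes: prothrombin had -0.24 ± 0.17, the fibrinogen chains -0.17 ± 0.15 and -0.17 ± 0.15, and C3 -0.27 ± 0.21, with the 4 C3 probes from 2 stretches at -0.28 to 0.40. Of 7 plasma defence and clotting genes 1 was lower and 6 did not pass (median -0.24), and of 4 iron and metal genes 1 was lower and 3 did not pass (median -0.61). Over all tested genes 13.2% were lower. The entry FHC, whose name may stand for ferritin heavy chain, was placed in no list and is not in these counts. It had 0.45 ± 0.23, higher in inner fish, and did not pass (adjusted p = 0.219).

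**Figure D3:**
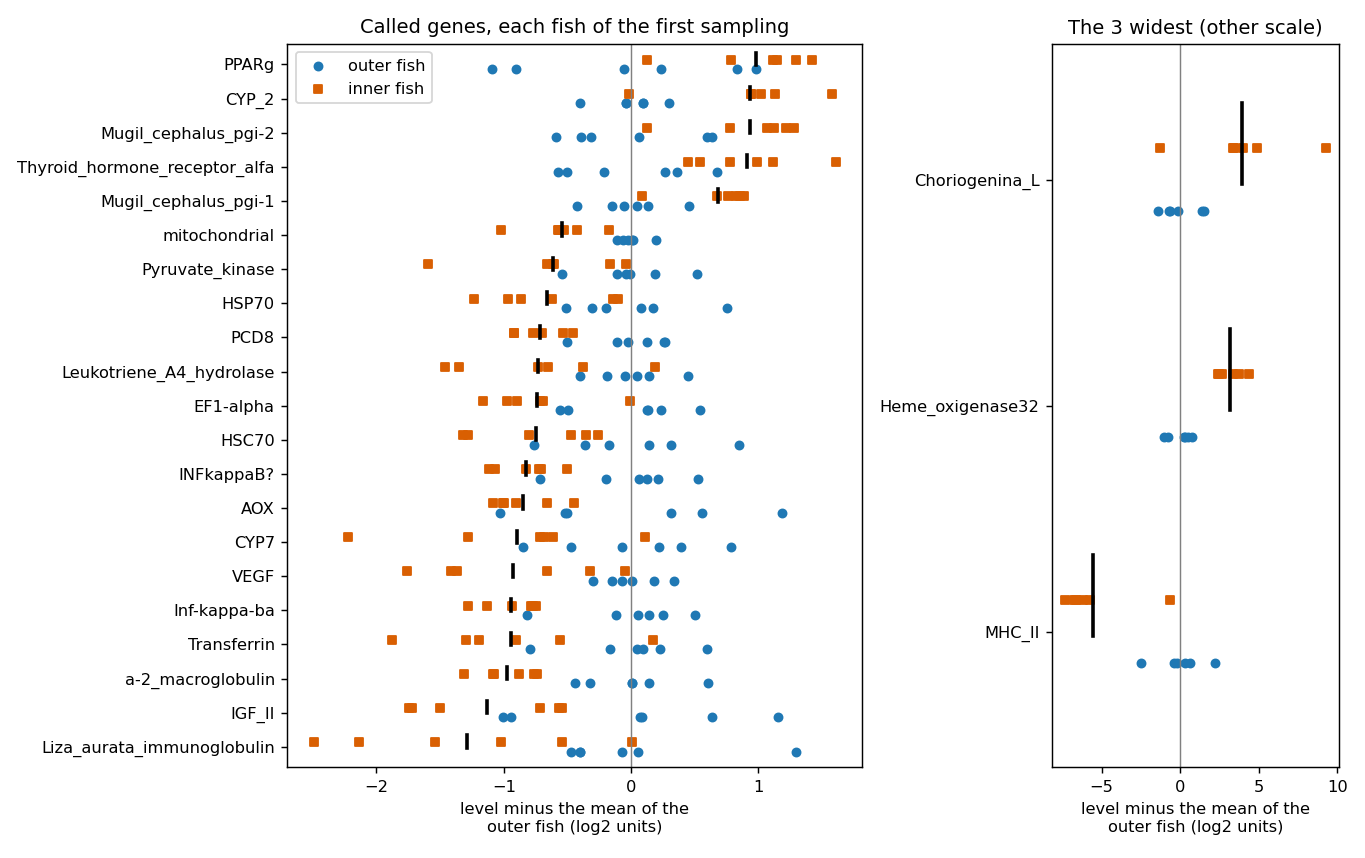
Level of each fish minus the mean of the 6 outer fish (horizontal axis, log2 units) for the 24 called genes (vertical axis), with squares for inner fish, circles for outer fish and a black bar at the inner mean. Only heme oxygenase, a-2_macroglobulin and the entry spelled mitochondrial show no overlap between the sites.

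MHC_II, named for the class of antigen-presenting proteins of immune cells, was read on 4 overlapping probes. Each is shifted against the next by 1 or 2 bases, and probe 4 against probe 1 by 4 bases. They are shown because the same fish read differently on them, with the 51 bases that all 4 share in capitals.
MHC_II, probe 1: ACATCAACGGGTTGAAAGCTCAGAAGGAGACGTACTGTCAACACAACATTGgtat
MHC_II, probe 2: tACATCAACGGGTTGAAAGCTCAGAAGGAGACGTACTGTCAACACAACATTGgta
MHC_II, probe 3: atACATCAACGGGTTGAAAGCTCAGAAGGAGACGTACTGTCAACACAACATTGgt
MHC_II, probe 4: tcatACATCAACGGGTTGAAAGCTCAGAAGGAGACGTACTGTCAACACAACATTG
On probe 1 inner fish 2, 3, 4, 5, 7 and 8 read -10.78, -10.88, -10.34, -11.46, -9.84 and -4.75. Outer fish 1, 2, 3, 4, 5 and 8 read -6.60, -4.34, -4.54, -1.93, -3.50 and -3.82. Thus 5 inner fish were below background and inner fish 8 was well above it, within the range of the 6 outer fish, all of which were above background. The site differences from probe 1 to probe 4 were -5.55 (adjusted p = 0.0322), -5.18 (0.0354), -4.56 (0.0558) and -3.93 (0.113). Outer fish 4 kept the same level on all 4 probes, from -2.05 to -1.90. Outer fish 1 went from -6.60 on probe 1 to -7.39, -9.53 and -10.62, below background on the last pair. Outer fish 5 went from -3.50 to -5.79 and inner fish 8 from -4.75 to -5.70. How strongly a fish lit up therefore varied with the probe by amounts that differed from fish to fish, and the size of the site difference is not resolved. The call depended on inner fish 2, 3 and 7 and on outer fish 3 and 4, each of which removed it when left out, and the difference was -1.67 with normexp.

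A probe of different sequence, Mhc2, did not repeat the pattern. It was well above background in inner fish 2 and 5 and outer fish 1, 4 and 5, and its difference was -1.04 ± 0.67 (adjusted p = 0.340). An immunoglobulin entry (Liza_aurata_immunoglobulin), the antibody gene of B cells, ran from -6.51 to -4.01 in inner fish (median -5.30) and from -4.49 to -2.72 in outer fish (median -4.25). Inner fish 3 lay within the outer range, the others below it. Its difference was -1.29 ± 0.39 (adjusted p = 0.0364) on 1 of 2 tested probes, and the other probe did not pass (adjusted p = 0.544). RAG1, which rearranges antibody genes, had -0.30 ± 0.25. Of the 4 genes of adaptive immunity 2 were lower and 2 did not pass, with a median of -1.16. Over all tested genes 13.2% were lower. The genes of adaptive immunity are also the blood and immune cell markers of the array. Their share in any other gene's difference was not tested.

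Genes of kappa-B signalling and inflammation had 3 members lower, 0 higher and 3 not past, where 13.2% of all tested genes were lower. Entries under the spellings INFkappaB? and Inf-kappa-ba, whose names refer to kappa-B, were lower in inner fish. Whether the names mean an activator or an inhibitor of the kappa-B pathway was not settled, so no direction of signalling is read from them. These entries are not independent, since the single probe of Inf-kappa-ba has the sequence of probe 1 of INFkappaB?. Each is nevertheless counted as a gene, here and in the totals of called genes. The latter has 4 probes that do not overlap, which are shown because they measure the transcript at 4 separate places. Capitals are used throughout, as no bases are shared between them.
INFkappaB?, probe 1, and Inf-kappa-ba: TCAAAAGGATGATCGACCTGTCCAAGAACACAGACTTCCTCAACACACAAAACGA
INFkappaB?, probe 2: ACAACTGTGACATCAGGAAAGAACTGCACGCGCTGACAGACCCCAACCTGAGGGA
INFkappaB?, probe 3: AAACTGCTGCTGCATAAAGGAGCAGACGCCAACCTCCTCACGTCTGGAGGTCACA
INFkappaB?, probe 4: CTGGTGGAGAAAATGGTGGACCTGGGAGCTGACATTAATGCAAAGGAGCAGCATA
On probe 4, the brightest of the called probes, inner fish 2, 3, 4, 5, 7 and 8 read -3.93, -4.27, -3.91, -4.32, -3.71 and -4.03. Outer fish 1, 2, 3, 4, 5 and 8 read -3.92, -3.08, -3.40, -2.99, -3.14 and -2.68. Outer fish 1 lay among the inner fish, and the other 5 outer fish lay above all of them. The difference was -0.82 ± 0.20 (adjusted p = 0.0133). The first 3 probes gave -0.90 (adjusted p = 0.00929), -0.58 (0.0602) and -0.74 (0.0249), so that 3 of 4 separate places were called and the brightest, probe 2, was not. Under its other name probe 1 gave -0.94 ± 0.21 (adjusted p = 0.00820). Both names were called in all 12 fits with 1 fish left out and under 5 of 7 other scalings, while normexp gave -0.47 for Inf-kappa-ba (adjusted p = 0.0832).

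Leukotriene A4 hydrolase, which makes an attractant of white blood cells, had -0.73 ± 0.24 (adjusted p = 0.0488). It cleared the background in every outer fish but in only 4 inner fish, and its difference was -0.05 with normexp, so its size rests on dim signals. TNF?, named for a cytokine of inflammation, had -0.28 ± 0.36. MxP, an antiviral protein by its name, and VHSV-induced_protein had differences of the other sign, 0.71 ± 0.56 and 0.47 ± 0.59, and did not pass.

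Heat shock proteins, which refold damaged proteins, were called lower in 2 of 3 cases, against 13.2% of all tested genes. HSC70, the constitutive form, ran from -0.37 to 0.69 in inner fish (median 0.32) and from 0.19 to 1.80 in outer fish (median 0.93). The groups overlapped over much of their range, and the difference was -0.75 ± 0.24 (adjusted p = 0.0467), with all 3 of its separate stretches called. HSP70, the form raised by stress, had -0.66 ± 0.22 (adjusted p = 0.0484), and HSP90 had -0.62 ± 0.23 and missed the threshold (adjusted p = 0.0576). Within slide 1 these differences were -0.19, -0.07 and 0.01, against -1.21, -1.21 and -0.94 on slide 2. None of the 3 was called under any of the 7 other scalings.

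Translation, ribosomal and cytoskeleton genes had a median difference of -0.07 and a range from -0.74 to 0.13. The mean was lower in inner fish for 9 of the 11, and for 284 of all 476 tested probes. The median over all tested genes was -0.07 as well. The elongation factor entry EF1-alpha was called lower (-0.74 ± 0.25, adjusted p = 0.0498) on 1 of 5 overlapping probes. It was called under none of the 7 other scalings and lost the call in 9 of 12 fits that left out 1 fish. Its remaining 10 companions, among them 18S rRNA (0.07 ± 0.24), 28S rRNA (-0.02 ± 0.23) and beta-actin (-0.43 ± 0.20), did not pass. The entry spelled only mitochondrial had levels of -1.30, -1.76, -1.26, -0.91, -1.16 and -1.31 in inner fish and -0.80, -0.85, -0.73, -0.54, -0.76 and -0.72 in outer fish, in the order of their numbers. All inner fish lay below all outer fish, by a narrow gap, and the difference was -0.55 ± 0.17 (adjusted p = 0.0382). It was called on 3 of 4 probes, in 1 of 2 stretches, and its brightest probe did not pass (-0.51, adjusted p = 0.0553). The entry was called under none of the 7 other scalings, and its call was lost in 6 of 12 fits that left out 1 fish. The mitochondrial genes with a gene name did not pass, among them cyt_C (-0.73 ± 0.36), CoX1 (0.35 ± 0.24), cytochrome b (0.09 ± 0.26) and Cox3 (0.05 ± 0.23). The 3 tested Cox3 probes, from 3 separate stretches, ran from 0.05 to 0.72. The group had 1 of 10 genes called lower, against 13.2% of all tested genes, and a median of 0.00.

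Carbohydrate enzymes went in both directions. The entry pgi-1 (Mugil_cephalus_pgi-1), the usual symbol of phosphoglucose isomerase of glycolysis, had levels of 0.94, 0.26, 1.00, 1.03, 1.06 and 0.85 in inner fish 2, 3, 4, 5, 7 and 8. Outer fish 1, 2, 3, 4, 5 and 8 had 0.03, 0.12, 0.22, -0.25, 0.63 and 0.31. Inner fish 3 lay among the outer fish and the other 5 inner fish above all of them. The difference was 0.68 ± 0.19 (adjusted p = 0.0249), and all 4 of its probes, from 4 separate stretches, were called at 0.62 to 0.76. It was called under 6 of 7 other scalings, and the call was lost without inner fish 7 or outer fish 4. Its companion pgi-2 had 0.93 ± 0.27 (adjusted p = 0.0249) on a single dim probe, and 0.20 with normexp. Pyruvate kinase, the last enzyme of glycolysis, had -0.61 ± 0.21 (adjusted p = 0.0498). Inner fish 5 was its lowest value at -1.74, and without that fish the difference was -0.42 (adjusted p = 0.0953). The call of pyruvate kinase was lost in 9 of 12 fits that left out 1 fish and held under none of the 7 other scalings. PEPCK by its array name, an enzyme of glucose synthesis, had 0.32 ± 0.36 on the probe used.

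In lipid and bile metabolism single genes were called lower. CYP7, a family holding the enzymes that turn cholesterol into bile acids, had -0.90 ± 0.29 (adjusted p = 0.0467), from -6.45 to -4.12 in inner fish and from -5.08 to -3.44 in outer fish. AOX, placed with the peroxisomal genes by its name, had -0.85 ± 0.28 (adjusted p = 0.0498), with inner fish between -4.47 and -3.83 and outer fish between -4.41 and -2.20. In both cases the ranges overlapped and 1 of 4 overlapping probes was called. Among the 7 other scalings CYP7 was called under 0 and AOX under 2. Leaving out 1 fish ended the call of CYP7 in 8 of 12 fits and that of AOX in 9. The lipoprotein components ApoE (0.41 ± 0.39) and Apo_A1 (-0.07 ± 0.20) and the fatty acid binding protein FABP (0.22 ± 0.24) did not pass, nor did CYP_scc-24, named for the enzyme that starts steroid synthesis (0.99 ± 0.46, adjusted p = 0.165).

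Growth factors had 2 members lower and 4 not past, where 13.2% of all tested genes were lower. VEGF, which drives the growth of blood vessels, had levels of -3.17, -4.26, -4.22, -2.90, -3.51 and -4.61 in inner fish 2, 3, 4, 5, 7 and 8. The outer fish, in the order of their numbers, had -2.92, -2.51, -3.15, -2.84, -3.00 and -2.67. Inner fish 5 lay in the outer range and the others below it, and the inner SD of 0.68 exceeded the outer SD of 0.23. The difference was -0.93 ± 0.24 (adjusted p = 0.0164). Its call held whichever fish was left out but under only 3 of 7 other scalings, and not with the 12 first-sampling arrays alone (adjusted p = 0.0838). IGF_II, a growth hormone mediator, had -1.13 ± 0.37 (adjusted p = 0.0480) in both of its stretches, against -0.19 ± 0.19 for IGFI. Slide 2 gave -0.16 for IGF_II, and slides 1 and 3 gave -1.65 and -1.59. Its call was kept under none of the 7 other scalings, with -0.60 under normexp, and was lost in 8 of 12 fits that left out 1 fish.

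PCD8, placed with the cell death genes by its name, had a tight spread at both sites. Inner fish 2, 3, 4, 5, 7 and 8 had -3.20, -3.35, -2.88, -2.96, -3.13 and -3.35, and outer fish 1, 2, 3, 4, 5 and 8 had -2.45, -2.17, -2.16, -2.93, -2.30 and -2.54. Outer fish 4 lay among the inner fish and the other outer fish above all of them. The difference was -0.72 ± 0.16 (adjusted p = 0.00874), it held with any 1 fish left out, and it was called under 3 of 7 other scalings. The other 7 tested genes of cell cycle and death, p53 (-0.23 ± 0.31) and caspase 3 (-0.05 ± 0.25) among them, did not pass, with cyclin_G1 nearest at -0.53 ± 0.19 (adjusted p = 0.0558). All 4 tested genes of proteolysis also failed to pass. As 18.6% of all tested genes passed in either direction, neither count sets its group apart.

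The 12 fish also differed from each other in ways the site does not describe. Principal components were taken of the tested probes without equalising their spread. Probes with wide swings, such as the overlapping ones of choriogenin L and MHC_II, therefore weigh more, and which probes carried a component was not examined. The first component held 32.5% of the variance and parted the sites, since the scores of inner fish were 1.58 to 20.5 and those of outer fish -11.2 to -6.95. Inner fish 5 stood at the lowest of these inner values, and on the second component (21.7%) it stood alone at 23.5, with the rest between -8.35 and 5.36. Inner fish 5 also had the lowest mean correlation with its own group, 0.947. It held the highest level of BHM, a name without a settled meaning, at 0.52 against -6.28 to -4.98 in the other inner fish. Trypsin, a digestive enzyme of the pancreas that lies within the liver of many fish, read 1.59 in inner fish 5, 2.85 in inner fish 8 and 1.23 in outer fish 1, and between -4.34 and -1.22 in the rest. Its site difference was 0.32 ± 1.46, so this marker of another tissue varied between fish and not detectably by site, and its part in any gene above was not tested.

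How many of the 24 called genes set an inner fish beyond all outer fish ranged from 14 in fish 5 to 20 in fish 7 and fish 8. Fish 2 had 18, fish 3 had 16 and fish 4 had 15. Because these same fish decided which genes were called, the counts describe how evenly the inner fish share the differences and do not test them. Inner fish 3 had the highest value of heme oxygenase, choriogenin L and VgC and was the 1 fish with VTG-B above background.

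**Figure D4:**
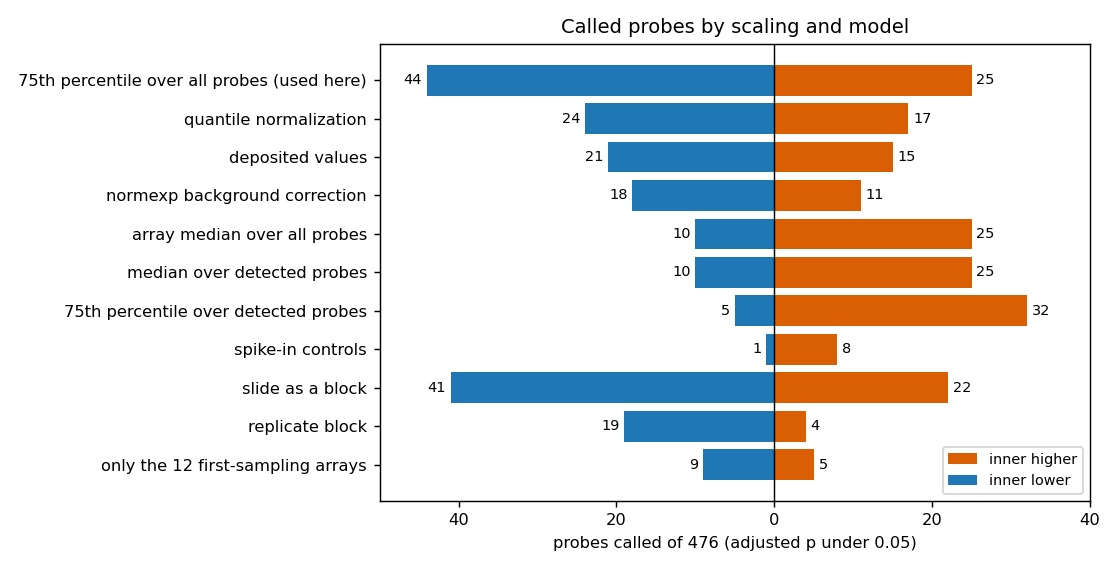
Number of the 476 tested probes called higher (right) and lower (left) in inner fish under each scaling, background correction or model (horizontal axis, probes at adjusted p under 0.05). The bars run from 44 lower and 25 higher under the scaling used here to 5 and 32 when the 75th percentile was taken over detected probes, and 1 and 8 with spike-in controls.

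The same comparison at the second sampling is set beside the first. The genes were chosen by their difference at the first sampling, so part of a smaller difference at the second can come from that choice. Between samplings the change of the site difference was called for 58 probes (12.2% of those tested), 5 with a larger and 53 with a smaller inner minus outer difference at the first sampling. Smaller ones were the majority under 5 of the 7 other scalings. Heme oxygenase had a site difference of 3.18 at the first and -0.11 at the second sampling, a change of 3.29 ± 0.62 (adjusted p = 0.00162). Its inner mean was -1.54 at the first and -3.62 at the second sampling, and its outer mean -4.72 and -3.50. The change was called under all 7 other scalings, at 2.59 to 3.85. For choriogenin L the corresponding change was 4.13, which did not pass (adjusted p = 0.0780), and for MHC_II -6.23 (adjusted p = 0.0780). At the second sampling choriogenin L was well above background in 0 inner fish and 1 outer fish. MHC_II was well above background in 4 fish of each site. It read -10.69 and -10.81 in inner fish 2 and 4, and -9.90 and -10.58 in outer fish 6 and 7. Fish with and without an MHC_II signal thus occurred at both sites.

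CYP7 and AOX, both called lower in inner fish at the first sampling by calls that most other scalings did not repeat, had site differences of 1.17 and 0.83 at the second. Their changes of -2.07 (adjusted p = 0.00202) and -1.68 (adjusted p = 0.00809) were called under 5 and 6 of the 7 other scalings. PCD8, VEGF, transferrin, HSC70, HSP70 and pyruvate kinase changed as well, from lower in inner fish at the first sampling to means of 0.16 to 0.67 above the outer fish at the second, but each under 3 or fewer of the other scalings. PPARg (0.98 and 1.19) and thyroid hormone receptor alpha (0.91 and 0.78) were higher in inner fish at both samplings, with changes of -0.21 and 0.13 that did not pass. CYP_2 had 0.93 and 1.85, a change of -0.91 that did not pass (adjusted p = 0.145). UGT, which did not differ detectably at the first sampling, had 1.90 at the second and a change of -1.98 (adjusted p = 0.00586).

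**Figure D5:**
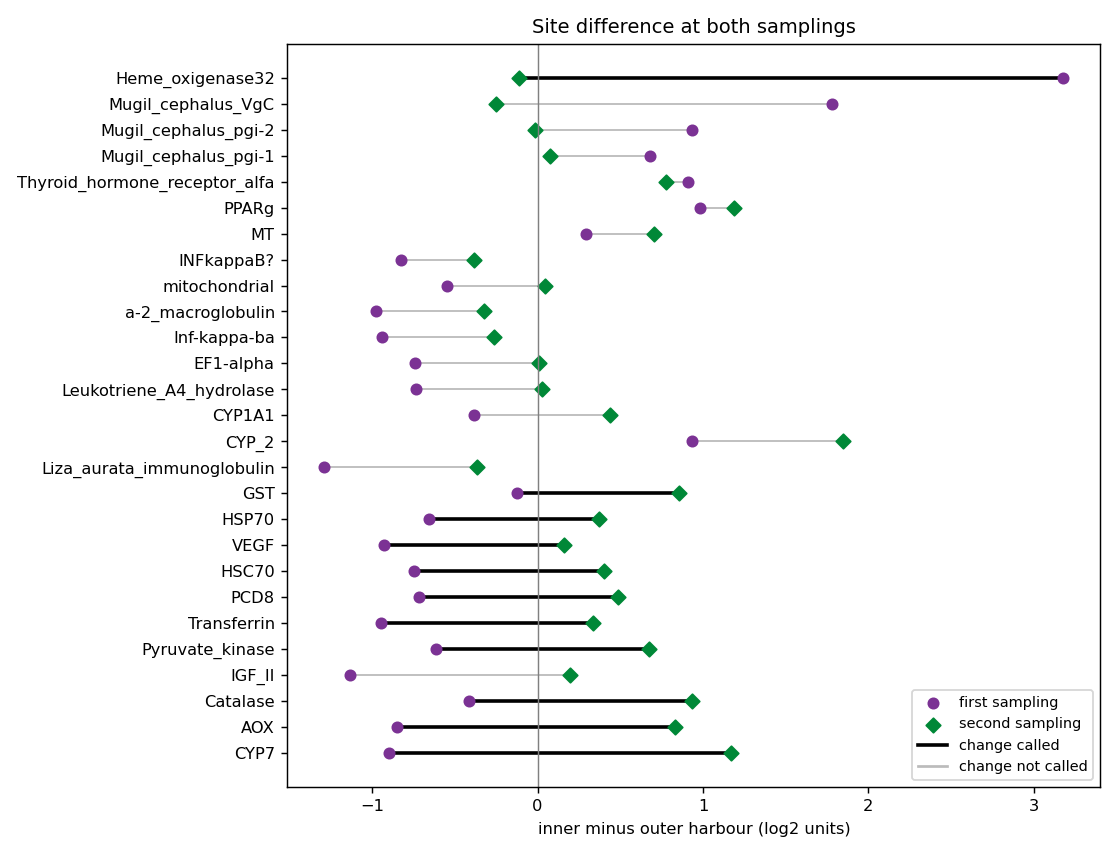
Site difference (horizontal axis, inner minus outer in log2 units) at the first and the second sampling for 27 genes (vertical axis): the called genes without MHC_II and choriogenin L, and 5 exposure markers. A black line joins the values where the change was called, as for heme oxygenase (3.18 and -0.11) and CYP7 (-0.90 and 1.17), and a grey line where it was not.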

How the data were processed

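Total RNA was labelled with Cy3 from an oligo-dT primer and hybridised to 1-colour Agilent arrays, per the labels' protocols. Agilent Feature Extraction 9.5.3.1 turned each scan into one background-subtracted intensity per spot before the authors deposited the arrays, per the file headers. The authors also deposited a table of log2 values of the same arrays, with its normalization not given in the sources used here. This table was tried in place of the scanner values, and each of its columns correlated with its own array at r of 0.992 or more.

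From these files, log2 intensities were averaged over the unflagged spots of a probe, and each array's values were then set relative to its 75th percentile. Saturated spots numbered 0, and 43 to 100 spots per first-sampling array were flagged by the scanner software. Spellings that differed only in case or punctuation were joined, giving 160 genes from 166 names. INFkappaB? and Inf-kappa-ba stayed separate genes despite a shared probe sequence, and so did CYP1_C and Cyp1. limma 3.58.1 (R 4.3.3) was fitted to all 24 arrays with a coefficient for each of the 4 groups, and p-values were adjusted over the 476 tested probes. Single measures per array were tested by exact permutation over 924 splits, whose smallest p is 0.00216. Each of the 3 slides held 2 inner and 2 outer arrays of the first sampling. Precision is limited by the number of arrays. The computation was tested on simulated data.

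Every gene with a called probe was named, with its brightest called probe, and whatever their p also GST, catalase, choriogenin, CYP1A, HSP70, metallothionein and vitellogenin, which made 29 genes. Up to 4 further genes of each role list could be named as not past the test. Any beyond these, such as UGT, BHM, FHC, trypsin and the untested genes, were chosen after their values were seen. The members, lists and tests were chosen with earlier results of these data known. Gene names are those of the array design, and the probes carry no genome coordinates. Alternatives covered 7 scalings or sources of values, the filter on dim probes, spot flags, the arrays in the fit, slide, sample number, each fish left out and an exact permutation test. One result is not reported here.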

Additional observations from a re-analysis of the deposited data

Results flagged for a closer look

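For 11 of the 29 named genes the site difference was not the same at both samplings in limma (adjusted p under 0.05, difference at the first minus that at the second sampling, log2 units). Over all 129 tested genes, by the same choice of probe, the change was called for 14 (10.9%). Of the named genes 24 were chosen by their difference at the first sampling, which is part of the change, so their count is no independent result. Heme oxygenase had a change of 3.29, called under all 7 other scalings. CYP7 had -2.07 and AOX -1.68, called under 5 and 6 of them. Catalase, with a site difference of -0.42 at the first and 0.94 at the second sampling, had -1.35, called under 3. PCD8 had -1.20, called under 3, and pyruvate kinase -1.28, called under 2. Transferrin had -1.28, HSC70 -1.15, HSP70 -1.03 and GST -0.98, each called under 1. VEGF had -1.09, called under none. All 11 had the same sign under the 7 scalings.

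In 4 of 58 tests, a fish stood apart from the others of its group by more than 0.625 of the group's range, the 95% limit of Dixon's test for 6 samples, which chance passes in about 1 in 20 groups. MHC_II was high in inner fish 8, the 1 inner fish above background (ratio 0.759). The entry pgi-1 was low in inner fish 3 (0.727). The immunoglobulin entry was high in outer fish 5 (0.699). Catalase was high in inner fish 4 (0.672).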

How the results depend on the processing

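All 24 called genes had the same sign under the 7 other scalings and within each of the 3 slides, although pyruvate kinase was at 0.00 on slide 3. Since they were chosen by their calls on these arrays, this is no independent check. Against 25 probes higher and 44 lower, the calls were 8 and 1 with spike-in controls, 11 and 18 with normexp and 15 and 21 from the deposited table. The lower calls alone moved to 5 when the 75th percentile was taken over detected probes, 10 with their median, 10 with the array median and 24 with quantile normalization. Without a filter on dim probes 16 were higher and 25 lower, and among probes detected on all 24 arrays 16 and 70. With only the 12 first-sampling arrays there were 5 and 9. Slide as a block (22 and 41) and keeping flagged spots (24 and 33) changed them less. The exact permutation test called 0 and 0, with 113 probes at an unadjusted p under 0.05, against 127 in limma. Its smallest possible p is 0.00216, and too few probes reached it for any to pass after adjustment, even heme oxygenase with no overlap between the sites. The absence of calls there cannot decide whether a call in limma holds.

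Leaving out 1 fish gave 11 to 29 higher and 19 to 51 lower. The total of 69 fell by more than 1.5 times without inner fish 3 (16 and 28), 7 (11 and 22) or 8 (19 and 19) and without outer fish 3 (12 and 21) or 4 (14 and 24). The 8 genes called in every such fit were heme oxygenase, a-2_macroglobulin, Inf-kappa-ba, INFkappaB?, PCD8, thyroid hormone receptor alpha, VEGF and choriogenin L. Among them Inf-kappa-ba and INFkappaB? share a probe sequence, and choriogenin L passed the filter on dim probes only through the inner fish. VgC passed without inner fish 5 (2.59) and was 1.09 without inner fish 3.

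With the sample number as a replicate block, 4 probes were higher and 19 lower, and 4 and 26 for the change between samplings. Same-numbered fish did not deviate together throughout, with correlations from -0.09 to 0.39 over 5 shared numbers, so the numbers were not taken to pair the samples.

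For the change of the site difference, against 5 higher and 53 lower, the calls were 8 and 6 with quantile normalization and 11 and 19 with the array median. Scaling over detected probes gave 9 and 18 for the 75th percentile and 21 and 10 for the median. The deposited values gave 6 and 7, normexp 4 and 44 and spike-in controls 5 and 38.

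Among the 29 named genes, signs turned under these alternatives in 5 that were not called. GST had 0.343 within slide 1, 0.0128 with the array median, 0.0203 from the deposited table, and 0.130 and 0.0338 when the 75th percentile or the median was taken over detected probes. VgC had -0.35 and catalase 0.0271 within slide 2, and CYP1A1 0.115 and MT -0.15 within slide 3. Where no value above shows it, the cause of a lost call was not tested. Normexp lowered the size by over 1.5 times and ended the call for choriogenin L, MHC_II, pgi-2, leukotriene A4 hydrolase, Inf-kappa-ba (-0.47), thyroid hormone receptor alpha (0.37), the immunoglobulin entry (-0.71), CYP7 (-0.52) and IGF_II (-0.60).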

Other observations

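Some transcripts too rare to be tested were read in single fish. BAX, whose protein opens the mitochondrial membrane in cell death, had at least 1 of 4 probes above background in 4 outer fish and in 1 inner fish, number 5. PO, a name without a settled meaning, cleared the background in inner fish 5 on all 4 of its probes, at -8.98 to -8.23, and on 1 probe each in inner fish 8 and outer fish 3. The probes for a salmon-type gonadotropin-releasing hormone, by the truncated array name, were above background in 2 outer fish and 0 inner fish. CYP19A2, named for an aromatase that makes estrogens, and growth hormone, a product of the pituitary, were above background in none of the 12 fish. These values describe single fish and were not tested.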
